A study of Mus musculus with 9 samples.

Results

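The mammalian circadian clock is read here through 10 core clock genes, Arntl (also called Bmal1), Clock, Per1, Per2, Per3, Cry1, Cry2, Nr1d1, Nr1d2 and Dbp. They were taken by name from a table of 54532 genes, and all 10 were found and all 10 passed the filter of a mean of at least 0.5 FPKM, which left 15610 genes for testing. The RNA was from the vascular tissue of C57BL/6 mice, all 24 weeks old, in 3 groups of 3 libraries. SAHH-het+betaine is the ApoE-/-/SAHH+/- genotype given betaine, SAHH-het is ApoE-/-/SAHH+/- without it, and SAHH-WT is ApoE-/-/SAHHWT, so every group carries the ApoE-null label. Ahcy encodes SAHH, the enzyme that hydrolyses S-adenosylhomocysteine to homocysteine and adenosine, and betaine is a methyl donor for turning homocysteine back into methionine. The sources used here do not give how the alleles were made, how much betaine was used and for how long, or the time of day at which tissue was taken. Separate animals are not stated for the libraries of a group, so p-values measure only the spread between these libraries, which may be technical.

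The clock is a feedback loop of transcription. CLOCK and BMAL1 (the Arntl product) bind E-boxes and switch on the Per and Cry genes, whose proteins return to block them, and the receptors REV-ERB alpha and beta (Nr1d1 and Nr1d2), which repress Arntl through ROR elements (ROREs). Dbp is a direct E-box target whose protein, with its relatives TEF and HLF, acts on D-boxes. Arntl and Npas2 therefore peak nearly opposite to Dbp, Nr1d1 and Per3 in mouse tissues, blood vessels and fat included, and Per1 and Per2 also respond quickly to glucocorticoids and other signals. Chemical block of SAHH is known to lengthen the circadian period of mammalian cells, which links the methyl cycle to this loop.

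Promoter windows of 250 bases before to 50 bases after the start (RefSeq, GRCm38.p6) were found for 9 of the 10 clock genes. Those printed hold a match to a searched motif and belong to genes whose levels are given below, and Ciart, a repressor of CLOCK and BMAL1, was added after its values were seen. Both strands were searched for the E-box CACGTG, the E-prime box CACGTT, the D-box TTATGTAA or TTACGTAA, the cAMP element TGACGTCA and the RORE consensus, and matches are in capitals. Arntl (chr7:113207261-113207560, plus strand) holds 1 RORE in the second of its 2 windows, 26 to 36 bases after the transcription start and so near the end of the printed sequence. Per3 (chr4:151044616-151044915, minus strand) holds 2 D-boxes, Per1 (chr11:69098699-69098998, plus strand) 1 E-box, Nr1d1 (chr11:98775328-98775627, minus strand) 1 E-prime box read on the other strand, and Ciart (chr3:95882179-95882478, minus strand) 3 E-boxes.
Arntl promoter: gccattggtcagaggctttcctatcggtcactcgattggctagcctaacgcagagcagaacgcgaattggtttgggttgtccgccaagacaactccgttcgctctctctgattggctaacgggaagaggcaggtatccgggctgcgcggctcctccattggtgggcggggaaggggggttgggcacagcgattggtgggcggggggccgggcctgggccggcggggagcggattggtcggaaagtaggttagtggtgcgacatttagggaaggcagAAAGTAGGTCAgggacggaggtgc
Per3 promoter: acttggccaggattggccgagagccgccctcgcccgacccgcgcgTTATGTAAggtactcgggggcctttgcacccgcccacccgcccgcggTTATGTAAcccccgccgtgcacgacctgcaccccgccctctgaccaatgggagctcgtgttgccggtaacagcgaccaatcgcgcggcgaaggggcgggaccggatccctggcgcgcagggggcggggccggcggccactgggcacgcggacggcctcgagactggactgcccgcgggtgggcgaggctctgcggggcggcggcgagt
Per1 promoter: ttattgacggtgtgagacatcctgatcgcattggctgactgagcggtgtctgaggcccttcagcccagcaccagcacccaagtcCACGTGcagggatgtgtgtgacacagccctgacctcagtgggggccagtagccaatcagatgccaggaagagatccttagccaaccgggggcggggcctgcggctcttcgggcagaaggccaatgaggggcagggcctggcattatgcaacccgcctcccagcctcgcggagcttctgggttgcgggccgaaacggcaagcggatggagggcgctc
Nr1d1 promoter: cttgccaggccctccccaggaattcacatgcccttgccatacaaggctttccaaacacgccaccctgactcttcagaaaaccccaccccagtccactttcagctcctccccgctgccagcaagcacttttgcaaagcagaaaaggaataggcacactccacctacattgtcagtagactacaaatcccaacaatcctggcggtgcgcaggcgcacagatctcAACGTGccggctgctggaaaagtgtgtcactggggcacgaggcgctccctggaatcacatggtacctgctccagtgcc
Ciart promoter: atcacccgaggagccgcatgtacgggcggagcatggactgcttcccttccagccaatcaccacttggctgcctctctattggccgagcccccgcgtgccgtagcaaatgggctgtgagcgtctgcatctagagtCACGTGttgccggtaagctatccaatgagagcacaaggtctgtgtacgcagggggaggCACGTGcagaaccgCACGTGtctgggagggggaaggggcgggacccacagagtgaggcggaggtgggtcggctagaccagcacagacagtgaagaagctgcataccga
Over all 32851 windows of this length, 7.15% hold the E-box, 4.68% the E-prime box, 1.06% a D-box, 1.79% the cAMP element and 0.384% the RORE. Among the 9 clock genes with a window, 2 held the E-box, 3 the E-prime box, 1 the D-box, 1 the RORE and 0 the cAMP element. The percentages count windows, while a gene was counted if any of its windows held the motif, so the 2 are not on the same base. Clock has 3 windows and Arntl and Per1 have 2 each, and the Arntl RORE and the Per1 E-box were each in 1 of 2. A match is a description of letters and not evidence of binding.

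Depth was even, at 15832043 to 17377888 recovered fragments per library. The libraries differed in tissue content. SAHH-WT 1 held adrenal cortex genes, with all 5 of 5 markers present and a summed level of 9625 FPKM, against 1.44 to 2.73 FPKM in the other 8 libraries, where Cyp21a1 and Cyp11b1 were listed at 0. Smooth muscle, endothelial, brown fat and white fat markers were present in every library. Brown fat markers summed to 4443 to 11866 FPKM for SAHH-het+betaine, 5664 to 11511 FPKM for SAHH-het and 430 to 9549 FPKM for SAHH-WT, and skeletal muscle markers ranged from 2.67 FPKM (SAHH-het 3) to 6438 FPKM (SAHH-het 1). FPKM values are shares of a library, and their sum ranged from 279298 (SAHH-WT 1) to 566309 (SAHH-het+betaine 3). Ahcy measured 7.66 to 9.70 FPKM for SAHH-het+betaine, 3.48 to 4.75 FPKM for SAHH-het and 7.17 to 11.5 FPKM for SAHH-WT, so SAHH-het+betaine, which carries the same SAHH+/- label as SAHH-het, did not share its low level. For Apoe the SAHH-het range was 149 to 225 FPKM, against 2.91 to 8.88 FPKM in the other 6 libraries, which goes against the ApoE-null label that SAHH-het shares with the other groups.

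The activator gene Arntl (chromosome 7, 113207465 to 113314126, plus strand, protein-coding) was the least expressed of the 10 clock genes, with a mean of 1.72 FPKM. In SAHH-het+betaine libraries 1 to 3 it measured 1.27, 1.11 and 2.13 FPKM. SAHH-het gave 0.356, 2.89 and 0.552 FPKM, and SAHH-WT gave 2.81, 2.39 and 1.94 FPKM. SAHH-het thus held both the highest and the 2 lowest values of all 9 libraries, and its range covered both other groups. The lowest value rests on 37 fragments (exact 95% Poisson interval 0.251 to 0.490 FPKM, counting error only), and the highest on 388 (2.61 to 3.19 FPKM), so the gap within SAHH-het is far wider than counting error. In bulk tissue, fewer cells of a type and less RNA per cell cannot be told apart.

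Clock (chromosome 5, 76209868 to 76304792, minus strand), which encodes the partner of BMAL1, varied least. It measured 5.04, 5.39 and 4.62 FPKM for SAHH-het+betaine, 2.66, 5.30 and 3.62 FPKM for SAHH-het and 4.58, 5.21 and 5.14 FPKM for SAHH-WT. The 2 lowest values were again SAHH-het 1 and 3, and the other 7 libraries lay between 4.58 and 5.39 FPKM. Npas2, the paralog that can replace CLOCK, measured 0.457, 0.513 and 0.653 FPKM for SAHH-het+betaine, 0.0755, 1.40 and 0.0699 FPKM for SAHH-het and 1.98, 1.00 and 0.685 FPKM for SAHH-WT. Its 2 lowest libraries were the same SAHH-het 1 and 3.

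**Figure D1:**
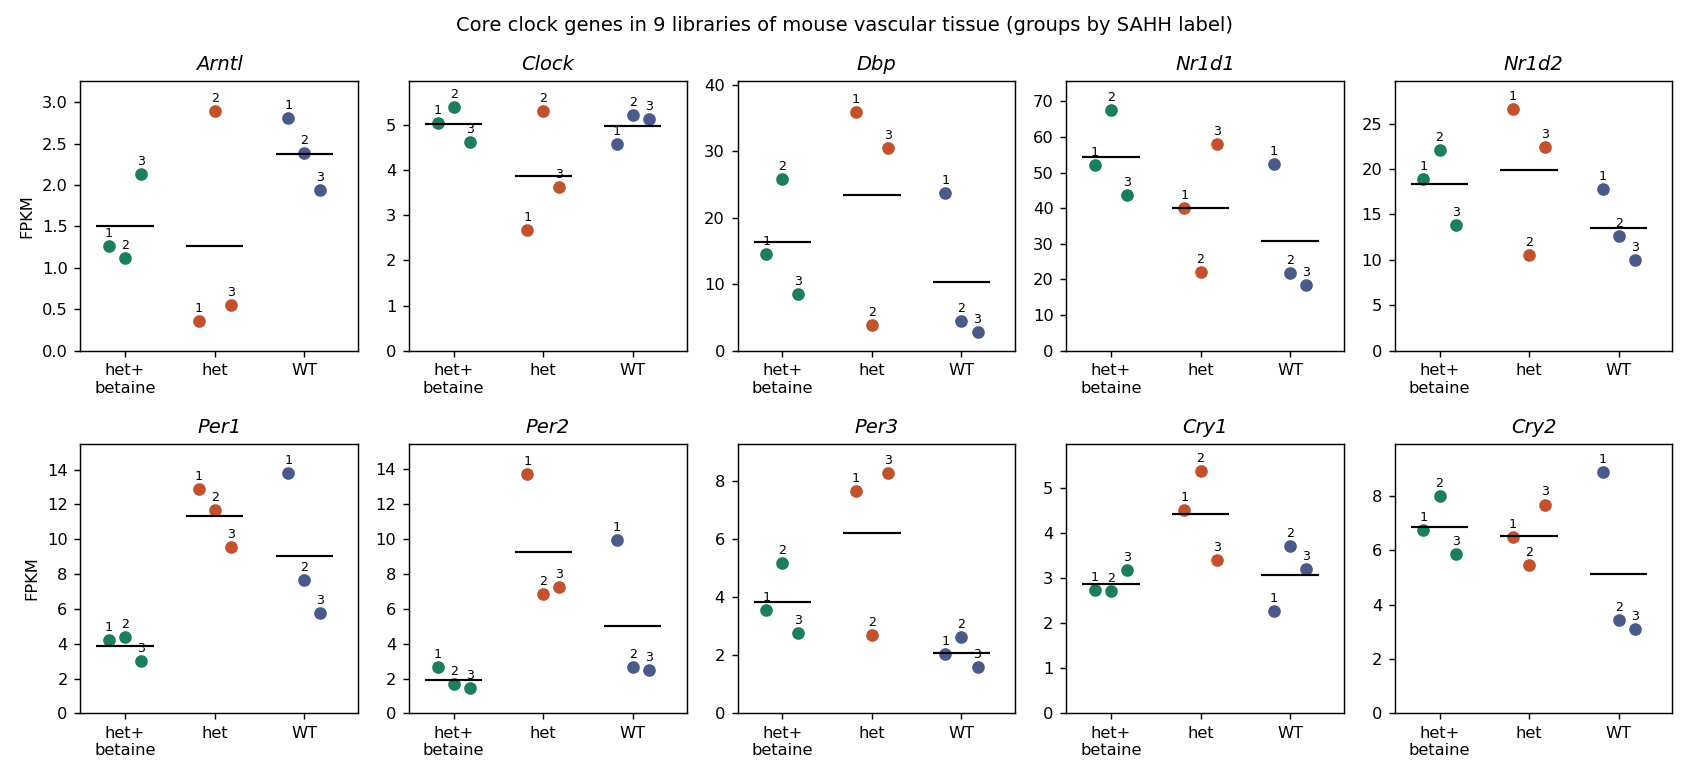
FPKM (y axes from 0) of the 10 core clock genes in each library, by group on the x axes, where numbers are replicate numbers and bars are group means of 3 libraries. Within SAHH-het, library 2 sits apart from libraries 1 and 3 for Arntl, Dbp, Per3 and Nr1d2, while Per1 and Per2 separate SAHH-het+betaine, at 1.46 to 4.39 FPKM, from SAHH-het, at 6.83 to 13.7 FPKM.

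Dbp (chromosome 7, 45705088 to 45710203, plus strand), the D-box activator and a direct output of CLOCK and BMAL1, had the widest range, 12.7-fold between its lowest and highest library. It measured 14.6, 25.8 and 8.54 FPKM for SAHH-het+betaine, 35.9, 3.83 and 30.4 FPKM for SAHH-het and 23.7, 4.45 and 2.82 FPKM for SAHH-WT. The 3 groups overlapped, with a low library in SAHH-het and a high one in SAHH-WT. That high SAHH-WT library is the one with adrenal cortex genes, and the part of that tissue in its Dbp level was not tested. Dbp shares 18.0% of its exon bases with Sphk2 on the opposite strand, and the use of strand in counting is not stated, while Sphk2 stayed between 5.32 and 7.41 FPKM in the 9 libraries.

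The repressor Nr1d1 (chromosome 11, 98767932 to 98775333, minus strand) was the most expressed of the 10, with a mean of 41.8 FPKM. It measured 52.0, 67.6 and 43.6 FPKM for SAHH-het+betaine, 39.9, 22.0 and 58.0 FPKM for SAHH-het and 52.3, 21.8 and 18.4 FPKM for SAHH-WT. Low values were SAHH-het 2 and SAHH-WT 2 and 3, the libraries that were also lowest in Dbp. Nr1d1 shares 8.55% of its exon bases with Thra on the opposite strand, which lay between 13.2 and 22.4 FPKM, and reads from the shared bases cannot be told apart without strand. Its paralog Nr1d2 (chromosome 14, 18204054 to 18239127, minus strand) measured 18.9, 22.1 and 13.9 FPKM for SAHH-het+betaine, 26.6, 10.6 and 22.4 FPKM for SAHH-het and 17.8, 12.6 and 9.99 FPKM for SAHH-WT. The same 3 libraries were lowest.

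Per3 (chromosome 4, 151003652 to 151044665, minus strand), whose window holds the pair of D-boxes shown above, encodes a PERIOD protein with a lesser part in the core loop than PER1 and PER2. It measured 3.55, 5.18 and 2.76 FPKM for SAHH-het+betaine, 7.66, 2.69 and 8.27 FPKM for SAHH-het and 2.04, 2.64 and 1.60 FPKM for SAHH-WT. Every library of the 2 SAHH+/- groups lay above every SAHH-WT library, the closest pair being SAHH-het 2 at 2.69 FPKM and SAHH-WT 2 at 2.64 FPKM. These rest on 461 and 455 fragments, with exact 95% Poisson intervals of 2.45 to 2.94 and 2.40 to 2.89 FPKM. That gap is thus within counting error, and the interval of SAHH-het+betaine 3 (2.48 to 3.07 FPKM) also overlaps that of SAHH-WT 2. Whether the groups stay apart after division by each library's FPKM sum was not tested.

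Per1 (chromosome 11, 69095217 to 69109960, plus strand) and Per2 (chromosome 1, 91415982 to 91459324, minus strand), the PERIOD repressors that also answer acute signals, followed another order. Per1 measured 4.22, 4.39 and 3.04 FPKM for SAHH-het+betaine, 12.9, 11.7 and 9.53 FPKM for SAHH-het and 13.8, 7.65 and 5.75 FPKM for SAHH-WT. Per2 measured 2.64, 1.71 and 1.46 FPKM for SAHH-het+betaine, 13.7, 6.83 and 7.22 FPKM for SAHH-het and 9.91, 2.67 and 2.50 FPKM for SAHH-WT. For both genes all 3 SAHH-het+betaine libraries were below all 3 SAHH-het libraries, and for Per1 also below all 3 SAHH-WT libraries. SAHH-WT 1, with adrenal tissue, was the highest of its group for both, as it was for Arntl, Dbp, Nr1d1, Nr1d2 and Cry2.

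The cryptochromes, partners of PER in repression, spanned a narrower range, 2.38-fold for Cry1 and 2.87-fold for Cry2, against 4.55-fold for Per1 and 9.38-fold for Per2. Cry1 (chromosome 10, 85131700 to 85185064, minus strand) measured 2.73, 2.71 and 3.18 FPKM for SAHH-het+betaine, 4.51, 5.38 and 3.41 FPKM for SAHH-het and 2.26, 3.72 and 3.19 FPKM for SAHH-WT. Its SAHH-het libraries all lay above its SAHH-het+betaine libraries. The closest pair was SAHH-het 3 at 3.41 FPKM and SAHH-het+betaine 3 at 3.18 FPKM. Their exact 95% Poisson intervals were 2.92 to 3.96 and 2.67 to 3.75 FPKM, so that gap is within counting error. Cry2 (chromosome 2, 92403646 to 92434043, minus strand) measured 6.72, 7.99 and 5.85 FPKM for SAHH-het+betaine, 6.47, 5.46 and 7.67 FPKM for SAHH-het and 8.88, 3.44 and 3.09 FPKM for SAHH-WT. All 3 groups overlapped for Cry2, with the highest and the 2 lowest values all in SAHH-WT. It shares 4.67% of its exon bases with D930015M05Rik, which lay at 0 to 0.844 FPKM.

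SAHH-het set against SAHH-WT compares groups that by label differ in SAHH alone, although Apoe also differed between them (log2 change 5.36, limma adjusted p = 0.000662), so the SAHH allele and Apoe cannot be told apart. Of the 10 clock genes, 0 passed limma at a Benjamini-Hochberg adjusted p under 0.05, where 0.0256% of all genes tested did (4 of 15610, either direction), and limma with voom on recovered fragments also called 0 of the 10. At an unadjusted p under 0.05 there was 1 of 10, Per3, against 12.5% of all genes. Of the 10 values, 8 were higher in SAHH-het and 2 (Arntl and Clock) were lower, with a median log2 change of 0.46 against 0.01 over all genes. The groups did not overlap for 1 of 10 as higher and 0 as lower, against 8.33% and 8.28% of all genes.

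The mean of Per3 was 6.20 ± 3.06 FPKM for SAHH-het and 2.09 ± 0.521 FPKM for SAHH-WT (SD, n = 3 each), a log2 change of 1.26 (SE 0.40, limma adjusted p = 0.353). All log2 changes were taken after adding 0.5 to each FPKM, so those of weakly expressed genes such as Arntl are understated. The log2 change was -0.98 for Arntl (95% interval -2.09 to 0.13), 1.20 for Dbp (-0.999 to 3.41) and 1.01 for Per2 (-0.12 to 2.13). These values rested on single libraries in both directions. Arntl was at -0.60 without SAHH-het 1 and -1.59 without SAHH-het 2. Dbp was at 0.63 without SAHH-WT 3, 0.65 without SAHH-het 1, 0.77 without SAHH-het 3, 2.06 without SAHH-WT 1 and 2.19 without SAHH-het 2. Per2 was at 0.69 without SAHH-WT 3 and 1.59 without SAHH-WT 1. Without SAHH-het 2, 5 of 10 clock genes had an unadjusted p under 0.05, against 16.9% of all genes in that fit, and 0 were called. This was the largest such count. It was 4 without SAHH-WT 1 (12.6% of all genes), 2 without SAHH-WT 2 (7.94%) and 1 when any other library was left out. Same-numbered SAHH-het and SAHH-WT libraries correlated weakly in their deviations from group means, a pairing read from these same data. Per2, Per3 and Cry1 were higher in SAHH-het in 3 of 3 such pairs, which for Per3 follows from groups that did not overlap. Per1, Cry2, Nr1d1, Nr1d2 and Dbp were higher in 2 of 3, and Arntl and Clock in 1 of 3. The share over all genes was not computed. With a replicate block in these groups, Per2, Per3 and Cry1 had an unadjusted p under 0.05, against 14.6% of all genes in that fit, and adjusted p-values from limma of 0.314, 0.318 and 0.339. SAHH-het 2 also differed in tissue markers, with endothelial markers at a sum of 372 FPKM, against 156 and 166 FPKM for SAHH-het 1 and 3. Its macrophage markers summed to 722 FPKM, against 388 and 369 FPKM in those libraries, and its brown fat markers to 5664 FPKM, against 11511 and 8738 FPKM. All 4 markers of each of these lists were above 0 in every library, and their part in the clock values was not tested.

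**Figure D2:**
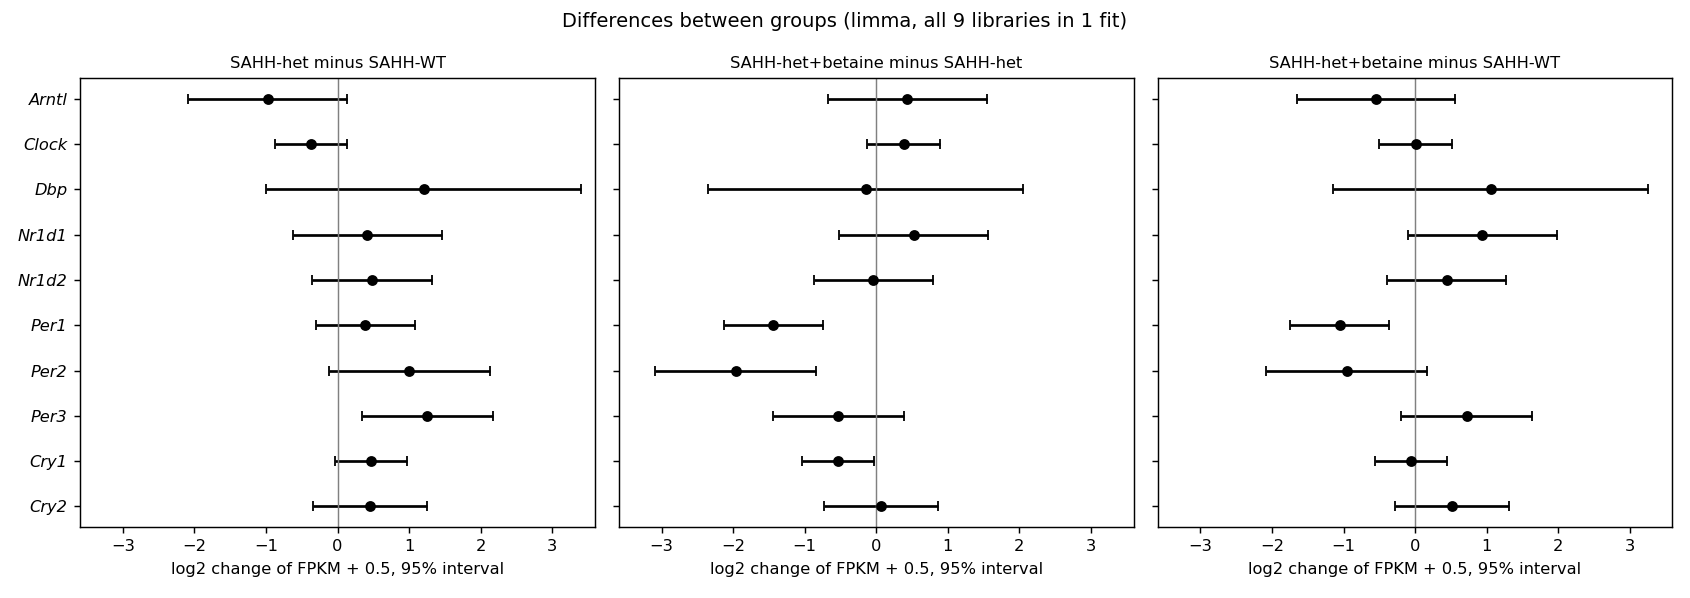
Log2 change of FPKM + 0.5 (x axes) for each clock gene (rows) in the 3 comparisons (panels), with limma 95% intervals from 1 fit of all 9 libraries. The intervals of Per1, Per2 and Cry1 lie below 0 for SAHH-het+betaine minus SAHH-het, while that of Dbp is the widest in each panel.

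SAHH-het+betaine set against SAHH-het compares groups that by label differ in betaine alone. Apoe also differed between them (log2 change -4.69, limma adjusted p = 0.00199) and their Ahcy ranges did not overlap, so betaine and these differences cannot be told apart. Again 0 of 10 clock genes passed limma, against 0.0192% of all genes (3 of 15610, either direction), and voom also called 0 of the 10. At an unadjusted p under 0.05 there were 3 of 10, Per1, Per2 and Cry1, all with lower values in SAHH-het+betaine, against 8.03% of all genes. The same 3 had groups that did not overlap, as lower, where 8.16% of all genes did, and 0 as higher, where 8.21% did. The count at an unadjusted p under 0.05 was 5 without SAHH-het 2 (6.60% of all genes in that fit). It stayed at 3 without SAHH-WT 1 (10.4%), SAHH-WT 2 (6.94%) or SAHH-het 3 (11.7%). It was 2 when any other library was left out (4.75% to 7.46%), with TPM rescaling (5.23%), with voom (6.30%) and with a replicate block over all 9 libraries (7.62%). The median log2 change of the 10 was -0.09, against -0.01 over all genes.

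Per1 averaged 3.88 ± 0.739 FPKM for SAHH-het+betaine and 11.4 ± 1.70 FPKM for SAHH-het (SD, n = 3 each), a log2 change of -1.44 (SE 0.30, limma adjusted p = 0.460), which ranked 39 of 15610 by p. Per2 averaged 1.93 ± 0.621 FPKM for SAHH-het+betaine and 9.25 ± 3.86 FPKM for SAHH-het, a log2 change of -1.96 (SE 0.49, limma adjusted p = 0.518), ranked 108. When single libraries were left out, Per1 stayed between -1.56 and -1.29 and Per2 between -2.16 and -1.66. Cry1 had a log2 change of -0.53 (95% interval -1.03 to -0.03, limma adjusted p = 0.606). Arntl had 0.43 (95% interval -0.68 to 1.54) and Dbp -0.15 (-2.35 to 2.06), intervals that leave room for changes of either sign. B cell markers, all 5 above 0 in every library, summed to 22.9 to 152 FPKM for SAHH-het+betaine and 11.2 to 20.6 FPKM for SAHH-het, and their part in the Per1, Per2 and Cry1 values was not tested.

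SAHH-het+betaine set against SAHH-WT differs by label in both allele and betaine, although Ahcy ranges overlapped, and it shares libraries with each of the other comparisons. Of the 10 clock genes 0 passed, as did 0% of all genes (0 of 15610 by limma, and 0 by limma with voom on recovered fragments). At an unadjusted p under 0.05 there was 1 of 10, Per1, against 8.01% of all genes (1251). Groups did not overlap for 1 as higher (Per3), where 9.29% of all genes did, and for 1 as lower (Per1), where 7.64% did. Per1 had a log2 change of -1.05 (95% interval -1.74 to -0.36, limma adjusted p = 0.618), and -0.72 without SAHH-WT 1. Nr1d1 averaged 54.4 ± 12.2 FPKM for SAHH-het+betaine and 30.8 ± 18.6 FPKM for SAHH-WT (SD, n = 3 each), a log2 change of 0.94 (95% interval -0.10 to 1.98). Leaving out single libraries gave 0.65 (without SAHH-WT 3) to 1.40 (without SAHH-WT 1) for Nr1d1, 0.48 to 1.92 for Dbp and 0.26 to 0.96 for Cry2, with the same libraries at the ends. Without SAHH-WT 1, 3 of 10 had an unadjusted p under 0.05, against 5.49% of all genes in that fit, and 0 were called. This count was also 3 without SAHH-het 2 (9.99% of all genes), 2 without SAHH-WT 3 (12.1%) and 1 when any other library was left out. With the replicate block in SAHH-het and SAHH-WT, 2 of 10 had an unadjusted p under 0.05, against 10.2%.

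The activator was set against the output gene within each library by the difference of Arntl minus Dbp in log2(FPKM + 0.5), which cancels a scaling factor common to both genes except for the part of the pseudocount. It was -3.09, -4.03 and -1.78 in SAHH-het+betaine, -5.41, -0.36 and -4.88 in SAHH-het and -2.87, -0.78 and -0.45 in SAHH-WT. The group means were -2.97 ± 1.13 in SAHH-het+betaine, -3.55 ± 2.78 in SAHH-het and -1.37 ± 1.31 in SAHH-WT (SD, n = 3 each). SAHH-het therefore held both ends of the scale, with library 2 above every SAHH-WT library and libraries 1 and 3 below every other library. This value is a description with no test.

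**Figure D3:**
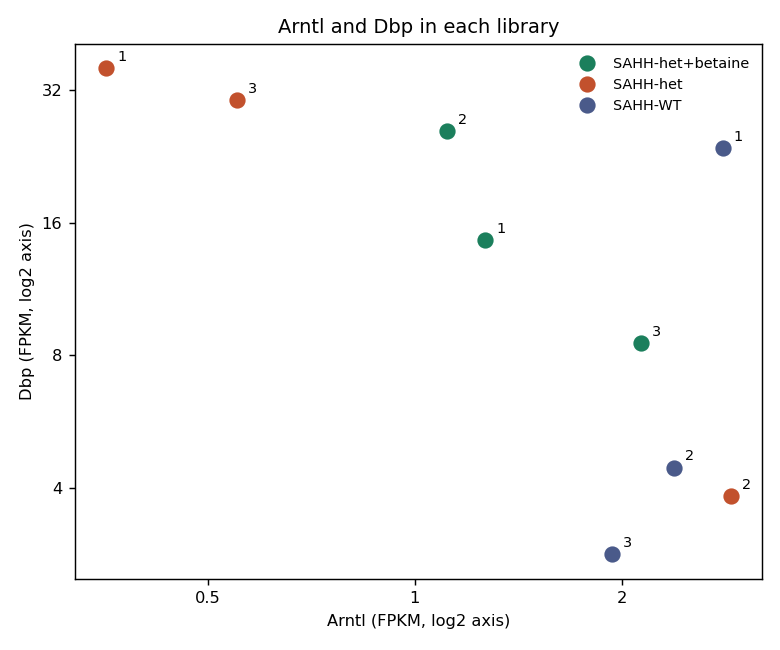
Dbp (y axis) against Arntl (x axis) in FPKM on log2 axes, 1 point per library, with replicate numbers beside the points. Libraries run from low Arntl with high Dbp (SAHH-het 1 and 3) to high Arntl with low Dbp (SAHH-het 2, SAHH-WT 2 and 3), and SAHH-WT 1 lies off that run with both genes high (2.81 and 23.7 FPKM).

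Arntl was correlated with each of the other 9 clock genes over the 9 libraries, with two-sided exact permutation tests adjusted by Benjamini-Hochberg over these 9 relations. With Per3 Pearson's r was -0.91 (exact p = 0.00141, adjusted p = 0.0127), and Spearman's rho was -0.77 (exact p = 0.0214, adjusted p = 0.0963). With Nr1d2 r was -0.81 (exact p = 0.00974, adjusted p = 0.0438) and rho -0.78 (exact p = 0.0172, adjusted p = 0.0963). Dbp gave r = -0.70 (exact p = 0.0389, adjusted p = 0.0875) and rho = -0.72 (exact p = 0.0369, adjusted p = 0.111), while Clock gave r = 0.77 (exact p = 0.0178, adjusted p = 0.0534) and rho = 0.43 (exact p = 0.250, adjusted p = 0.562). For Nr1d1 r was -0.48, for Cry2 -0.34, for Per2 -0.31, for Cry1 -0.11 and for Per1 -0.08, with adjusted p-values (exact permutation) of 0.350 to 0.831. After the group means were removed, r was -0.87 for Per3, -0.77 for Nr1d2, -0.64 for Dbp and 0.74 for Clock. Without SAHH-het 1 and 3, the 2 libraries farthest from the median of Arntl, r over the other 7 was -0.70 for Per3 (exact p = 0.0784), -0.62 for Nr1d2 (exact p = 0.151), -0.44 for Dbp (exact p = 0.311) and -0.36 for Clock (exact p = 0.418), while Per1 and Per2 came to 0.72 (exact p = 0.0710) and 0.68 (exact p = 0.0835) and Cry1 to 0.44 (exact p = 0.332). The relations with Per3 and Nr1d2 thus rest on those 2 libraries for their p, and the sign of r with Clock, Per1, Per2 and Cry1 rests on them too. For Cry1 and Per1 the sign also turned when group means were removed (0.43 and 0.06). Under TPM rescaling, which divides each library by its own FPKM sum, r was -0.68 for Per3 and -0.24 for Nr1d2, and neither passed.

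The place of other clock genes was read from their r with Arntl among all 15609 other genes tested, as a description. Ciart had the lowest r of all, -0.96, Tef ranked 6 from the lowest (-0.93), Nampt 13 (-0.91) and Per3 15. At the other end Npas2 ranked 5 from the highest (0.94). Not all related genes lay at an end. Rora ranked 6727 from the highest with Arntl, Arntl2 7130, Csnk1d 7994, Klf9 9079 and Wee1 10268. With Dbp as the anchor, Nr1d2 had the highest r of all 15609 genes, 0.97, Nr1d1 ranked 13 (0.88), Bhlhe41 29 (0.85) and Cry2 30 (0.85). Per1 and Per2 did not share this place over the 9 libraries, at ranks 5355 and 2485 from the highest with Dbp (r of 0.21 and 0.43). After the group means were removed, their r with Dbp was 0.63 and 0.74, against 0.76 for Per3. All of these r come from the same 9 libraries and share their depth and tissue content.

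Among genes other than the 10 clock genes, those named for the highest r with Arntl were Rab20 (0.97), Fam114a1 (0.96), Tmem18 (0.95), Csgalnact2 (0.95) and Zfp991 (0.94). The lowest were Ciart (-0.96), Opa3 (-0.95), Slc37a4 (-0.93), Tef (-0.93) and Ckmt1 (-0.91). For Dbp the highest were Fam174a (0.94), Sarnp (0.93), Setd3 (0.92), Ap3s2 (0.92) and Lancl1 (0.89), and the lowest were Adam17 (-0.95), Slc15a3 (-0.94), Chst4 (-0.93), Cd38 (-0.92) and Hus1 (-0.92). Each kept its sign after group means were removed, and all are Pearson's r over 9 libraries.

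The other genes of the pathway were counted in 5 lists. Of the 6 D-box and E-box factors (Tef, Hlf, Nfil3, Bhlhe40, Bhlhe41 and Ciart), all were tested and 0 passed in any comparison. Tef, the D-box activator related to Dbp, measured 21.0, 28.3 and 20.5 FPKM for SAHH-het+betaine, 51.1, 17.3 and 40.8 FPKM for SAHH-het and 11.9, 12.0 and 13.4 FPKM for SAHH-WT. Every library of the 2 SAHH+/- groups lay above every SAHH-WT library, with a log2 change of 1.38 for SAHH-het minus SAHH-WT (unadjusted p = 0.00465 by limma, adjusted p = 0.306) and of 0.86 for SAHH-het+betaine minus SAHH-WT (limma adjusted p = 0.618). Ciart, whose window holds the 3 E-boxes shown above, measured 1.20, 2.11 and 1.01 FPKM for SAHH-het+betaine, 8.16, 0.718 and 4.39 FPKM for SAHH-het and 0.195, 0.518 and 0.976 FPKM for SAHH-WT. SAHH-het minus SAHH-WT gave it a log2 change of 1.87 (adjusted p = 0.364 by limma), with overlapping groups. Bhlhe40, a repressor at E-boxes, averaged 28.1 ± 6.20 FPKM for SAHH-het+betaine, 18.7 ± 10.3 FPKM for SAHH-het and 17.1 ± 4.56 FPKM for SAHH-WT (SD, n = 3 each). For SAHH-het+betaine minus SAHH-WT, 4 of these 6 had groups that did not overlap as higher (Tef, Hlf, Bhlhe40 and Ciart), where 9.29% of all genes did, and 1 as lower, where 7.64% did. It was the repressor of D-box genes Nfil3, which was singled out after its values were seen, at 5.70 ± 3.13 FPKM for SAHH-het+betaine and 11.7 ± 1.88 FPKM for SAHH-WT (SD, n = 3 each). All overlap was read from FPKM as deposited. FPKM sums were 279298 to 455599 for SAHH-WT and 385956 to 566309 for SAHH-het+betaine. Whether these groups stay apart after TPM rescaling was not tested.

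**Figure D4:**
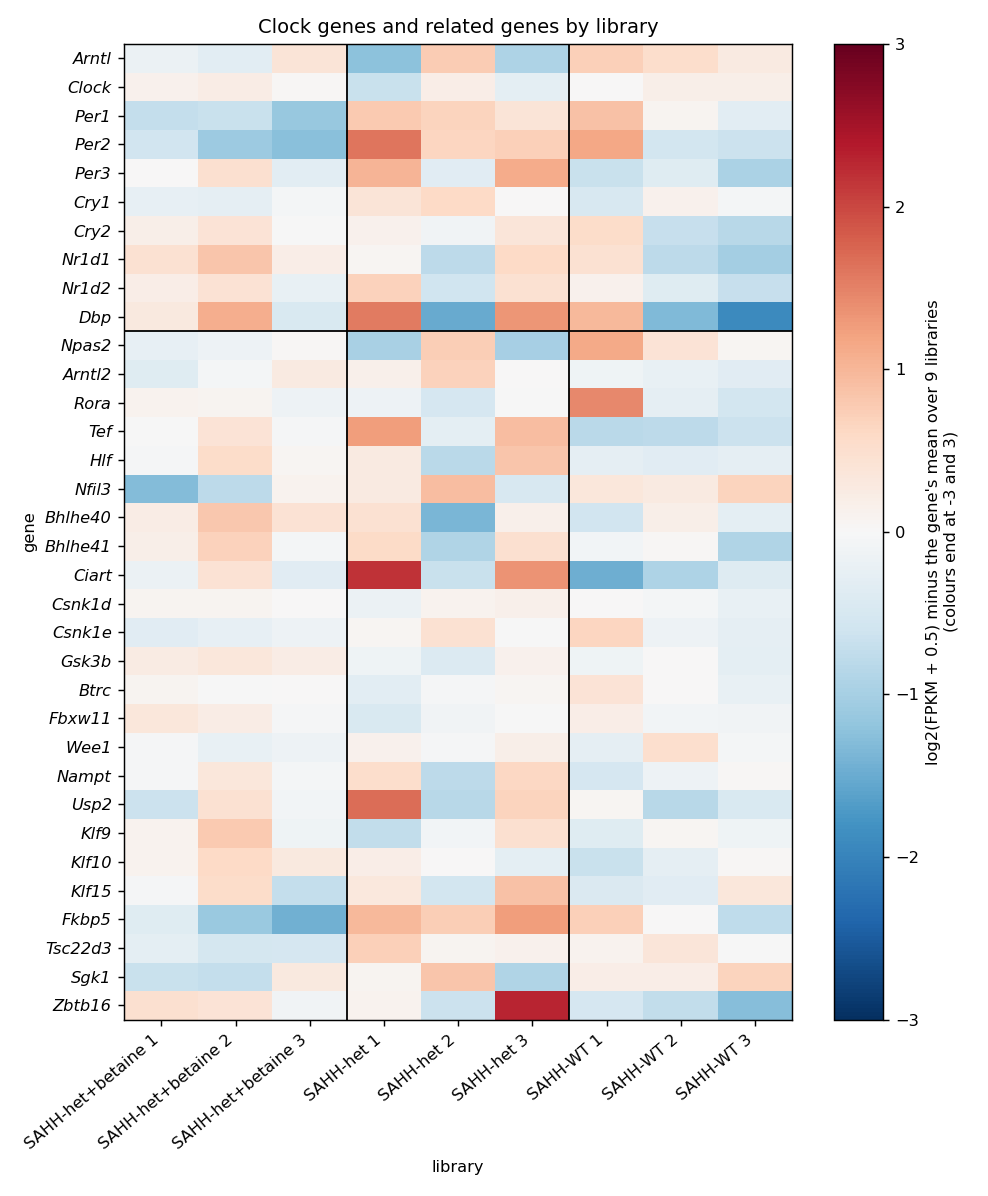
Log2(FPKM + 0.5) minus each gene's mean over the 9 libraries (colour) for the 10 core clock genes above the horizontal line and genes of the 5 related lists below it, by library. SAHH-het 1 and 3 are low for Arntl and Npas2 and high for Dbp, Per3, Tef and Ciart. SAHH-het 2 is above the mean for Arntl and Npas2 and low for Dbp. It is below the mean for Ciart and only slightly below it for Per3 and Tef, where it still lies above every SAHH-WT library. The 3 SAHH-het+betaine libraries are low for Per1, Per2 and Fkbp5.

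Among paralogs and ROR receptors 4 of 5 were tested (Rorb was too low) and 0 passed in any comparison. Arntl2 had a log2 change of 0.52 and Npas2 of -0.94 for SAHH-het minus SAHH-WT. Rora, whose product activates Arntl through ROREs, was highest in SAHH-WT 1 at 6.81 FPKM, against 1.34 to 2.36 FPKM in the other 8 libraries. Of 7 kinases and ubiquitin ligases that set the stability of PER and CRY, 6 were tested and 0 passed, with a median absolute log2 change of 0.13 for SAHH-het minus SAHH-WT, against 0.32 over all genes. That median was 0.28 for SAHH-het+betaine minus SAHH-het, against 0.26 over all genes, and 0.16 for SAHH-het+betaine minus SAHH-WT, against 0.28. Csnk1d, which encodes a kinase of PER, had a log2 change of 0.12 for SAHH-het minus SAHH-WT (limma adjusted p = 0.734). The kinase gene Gsk3b had a log2 change of 0.41 for SAHH-het+betaine minus SAHH-het (limma adjusted p = 0.616), and the ligase gene Fbxw11 had 0.37 (limma adjusted p = 0.645).

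Among 6 known clock-driven outputs (Wee1, Nampt, Usp2, Klf9, Klf10 and Klf15), all were tested and 0 passed in any comparison. All 6 log2 changes were positive for SAHH-het minus SAHH-WT (median 0.30, against 0.01 over all genes). Those of Wee1 (0.026) and Klf9 (0.040) were small, and Wee1 averaged 2.29 FPKM for SAHH-het and 2.30 FPKM for SAHH-WT. Nampt, the rate-limiting enzyme of NAD salvage, averaged 54.3 ± 8.93 FPKM for SAHH-het+betaine, 60.6 ± 27.1 FPKM for SAHH-het and 44.4 ± 8.36 FPKM for SAHH-WT (SD, n = 3 each). Usp2, a deubiquitinase under clock control, averaged 5.72 ± 2.30 FPKM for SAHH-het+betaine, 10.8 ± 8.33 FPKM for SAHH-het and 4.44 ± 1.57 FPKM for SAHH-WT. Klf10, a transcription factor gene, had a log2 change of 0.64 for SAHH-het+betaine minus SAHH-WT (limma adjusted p = 0.618) with groups that did not overlap, and Klf9 had 0.40 with overlapping groups.

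Of 4 glucocorticoid-induced genes (Fkbp5, Tsc22d3, Sgk1 and Zbtb16), 0 passed in any comparison, while all 4 values were lower in SAHH-het+betaine than in SAHH-het (median log2 change -0.56, against -0.01 over all genes). Groups did not overlap for 2 of them, where 8.16% of all genes were lower without overlap. The lower value of Zbtb16 rested on SAHH-het 3. It measured 5.43, 5.13 and 3.47 FPKM for SAHH-het+betaine and 4.11, 2.24 and 20.15 FPKM for SAHH-het. For SAHH-het+betaine minus SAHH-WT, Zbtb16 was higher without overlap (log2 change 1.10), while the other 3 genes were lower. Fkbp5, a chaperone partner of the glucocorticoid receptor, measured 3.33, 1.79 and 1.33 FPKM for SAHH-het+betaine, 9.22, 7.77 and 11.2 FPKM for SAHH-het and 7.61, 4.48 and 2.44 FPKM for SAHH-WT. Its log2 change was -1.96 for SAHH-het+betaine minus SAHH-het (limma adjusted p = 0.460). Tsc22d3, which encodes the glucocorticoid-induced leucine zipper, had -0.75 in that comparison (limma adjusted p = 0.552), and the kinase gene Sgk1 had -0.37 (limma adjusted p = 0.859). SAHH-WT 1, the library with adrenal tissue, was the highest SAHH-WT library for Fkbp5, Zbtb16, Per1 and Per2. This was not particular to them, as it was also the highest for Arntl, Cry2, Nr1d1, Nr1d2 and Dbp, though not for Clock, Per3 and Cry1. The other 2 glucocorticoid-induced genes went another way. Tsc22d3 was highest in SAHH-WT 2 (23.4 FPKM, against 19.6 FPKM in SAHH-WT 1) and Sgk1 in SAHH-WT 3 (27.0 FPKM, against 19.7 FPKM in SAHH-WT 1). The part of glucocorticoids in the Per1 and Per2 values was not tested.

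**Figure D5:**
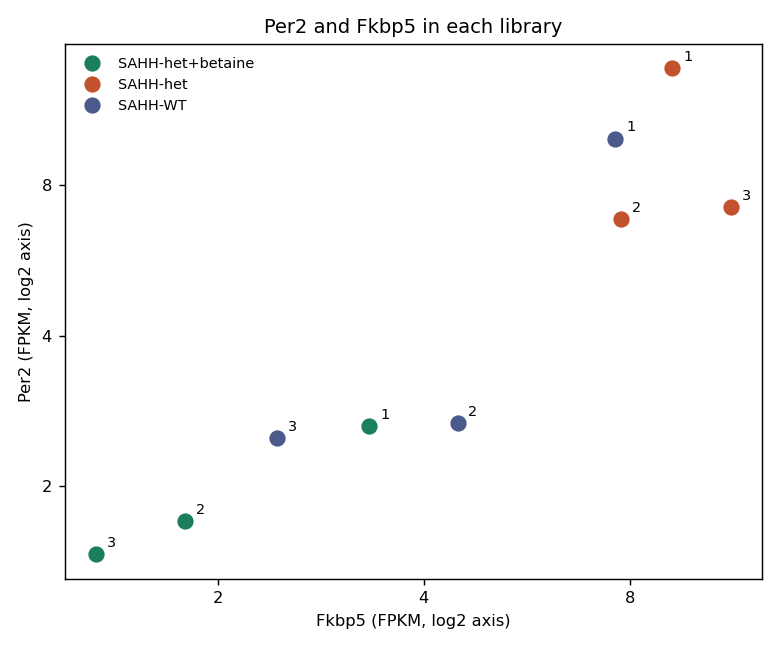
Per2 (y axis) against the glucocorticoid-induced gene Fkbp5 (x axis) in FPKM on log2 axes, 1 point per library, with replicate numbers beside the points. The 3 SAHH-het libraries and SAHH-WT 1 have both genes high (Per2 6.83 to 13.7 FPKM), and the other 5 have Per2 at 1.46 to 2.67 FPKM.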

How the data were processed

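RNA from vascular tissue was frozen, extracted with Trizol and sequenced as paired reads, per the labels' protocols and the series design text. HISAT2 2.0.5 placed the reads on mm10, per the submitters' processing notes. The values are FPKM computed and deposited by the authors, 1 column per library. The sources used here do not give the counter, its annotation release or its FPKM formula.

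Symbols and positions came from GENCODE M21 (GRCm38, the assembly of mm10), which named 54409 of 54532 genes. Fragments were recovered from the steps of FPKM times exon length, and 97.0 to 97.3% of values above 0 were whole within 0.1. The test was limma 3.58.1 in R 4.3.3 (eBayes with a trend, two-sided) on log2(FPKM + 0.5) over the genes whose mean reached 0.5 FPKM, with 3 group means in 1 fit of 9 libraries (6 residual degrees of freedom). Simulated data with known changes were used to check the fit. Correlations used SciPy 1.17.1 and NumPy 2.4.6.

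Clock genes, related lists and alternatives were chosen with earlier results of these data known. From each related list, the 2 genes with the smallest p and the 2 with the highest mean were to be named, and a few list genes are not reported here. Likeness to Arntl and Dbp was read among named genes other than the 10 clock genes whose mean reached 1 FPKM, without predicted genes and pseudogenes, 5 at each end. Of the promoters chosen, that of Dbp held no motif and is not printed. Deviations from group means had r of 0.29, 0.23 and 0.18 over genes for same-numbered SAHH-het and SAHH-WT libraries. Different-numbered libraries of these groups had -0.33 to 0.099, and same-numbered pairs with SAHH-het+betaine had -0.35 to 0.08. Different-numbered pairs with SAHH-het+betaine reached 0.39 (SAHH-het+betaine 3 with SAHH-het 1) and 0.31 (SAHH-het+betaine 1 with SAHH-WT 2). Pairing by number is thus not established. Blocked fits are therefore given among the alternatives.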

Additional observations from a re-analysis of the deposited data

How the results depend on the processing

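No clock gene was called in any of the 20 alternatives, and 583 of 600 recomputed log2 changes kept their direction. The other 17 were reversed, 11 of them by leaving out a library. The cause was not tested for any of them. Overlap of groups was read from FPKM as deposited and was not recomputed in the alternatives. Genes called over the whole table for SAHH-het minus SAHH-WT were 4, and came to 7 with no filter on low values, 2 with TPM rescaling, 2 with voom, 1 with only the 2 groups compared and 1 with a replicate block over all 9 libraries. For SAHH-het+betaine minus SAHH-het they were 3, and 1 with that block. For SAHH-het+betaine minus SAHH-WT they were 0, and 3 with no filter. A replicate block in SAHH-WT and SAHH-het alone gave 5, 2 and 0 in these 3 comparisons and changed no call of a clock gene. Leaving out 1 library gave 1 to 5, 1 to 4 and 0 to 2. TPM rescaling shifted the median of all genes by -0.28, -0.08 and -0.39, and voom by -0.22, -0.12 and -0.37. In SAHH-het+betaine minus SAHH-het, Cry2 was -0.015 with TPM and -0.055 with voom, and Nr1d2 was 0.041 with quantile normalization. Left-out libraries gave -0.048 to 0.18 for Cry2, -0.43 to 0.21 for Nr1d2 and -1.13 to 0.40 for Dbp. In SAHH-het+betaine minus SAHH-WT, Clock was -0.37 with TPM and -0.34 with voom, close to the shift of all genes, and Cry1 was 0.036 with quantile normalization. Left-out libraries gave -0.043 to 0.063 for Clock and -0.23 to 0.076 for Cry1. With TPM, r with Arntl was 0.90 for Clock, -0.68 for Per3, -0.24 for Nr1d2, 0.29 for Per1, 0.043 for Per2, 0.39 for Cry1 and 0.17 for Cry2. It was 0.81 for Clock with a pseudocount of 0.1 and -0.74 for Nr1d2 with quantile normalization. Left-out libraries gave r of 0.55 to 0.86 for Clock, -0.31 to 0.26 for Per1, -0.55 to 0.10 for Per2, -0.97 to -0.87 for Per3, -0.56 to 0.23 for Cry1, -0.91 to -0.72 for Nr1d2 and -0.91 to -0.62 for Dbp. The lowest fragment count of any clock gene in any library was 37, for Arntl in SAHH-het 1.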
